A study of Homo sapiens with 8 samples.

Results

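The genes described here encode the DIS3 family of ribonucleases, the SKI helicase complex and the related helicase MTR4. They are DIS3, DIS3L, DIS3L2, SKIV2L, SKIV2L2, TTC37 and WDR61, which were listed by name for their shared role, and all 7 were among the 10105 genes of the count table. Their RNA was measured in HEK293T cells, a human embryonic kidney cell line, either wild type (WT) or XRN1-null. The XRN1-null cells were made by CRISPR/Cas9 editing, which left a frameshifting deletion in XRN1, and are described as 1 line, so genotype and line cannot be told apart. For each genotype, 2 biological replicates were sequenced for total mRNA (RNA-Seq) and 2 for ribosome-protected footprints (RPF, Ribo-Seq), giving 8 libraries from cells harvested 24 h after plating. The viral transgenes that define HEK293T were not analysed here, so the identity of the line was not checked against markers.

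Cytoplasmic mRNAs whose poly(A) tail has been removed are degraded from either end. After decapping, XRN1 digests the body of the mRNA in the 5′–3′ direction, whereas in the opposite direction the RNA exosome digests it from the 3′ end. The exosome core in human cells is a catalytically inactive barrel and takes its activity from attached nucleases. DIS3 provides it in the nucleus, with both exonuclease and endonuclease activity, and DIS3L provides the exonuclease in the cytoplasm. DIS3L2 is the family member that works without the exosome, and it prefers RNAs carrying a 3′ tail of uridines. The SKI complex feeds mRNAs, also those on stalled ribosomes, into the cytoplasmic exosome. SKIV2L (now SKIC2) is its helicase, TTC37 (SKIC3) its scaffold and WDR61 (SKIC8) a beta-propeller subunit which also sits in the PAF1 transcription complex. SKIV2L2 (MTR4, now MTREX) is a paralogue of SKIV2L and the helicase of the nuclear exosome, and it is not a subunit of the SKI complex.

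The libraries held 33757487 to 38145433 counts in RNA-Seq and 1921641 to 4399542 in Ribo-Seq, so that footprint values are less precise. Expression is given as CPM, the counts of a gene per 1 M counts of the library after TMM scaling. XRN1 mRNA was 33.5 and 33.0 CPM in WT but 282 and 253 CPM in XRN1-null cells, a log2 fold change of 3.01 ± 0.08 (SE). Its footprints were 34.4 and 49.9 CPM in WT but 22.6 and 18.4 CPM in XRN1-null cells, a log2 fold change of -1.08 that missed the threshold used here (FDR = 0.006409), while its footprints relative to its mRNA fell by 4.09 on the log2 scale (FDR = 1.658e-06). The RPF value was near the threshold and its call varied. It passed with library totals (FDR = 0.004198), with the replicate number as a block (FDR = 1.748e-06), and without replicate 1 of the WT (FDR = 4.548e-10) or XRN1-null (FDR = 0.001925) Ribo-Seq libraries. It missed with RLE factors (FDR = 0.005482), in DESeq2 (FDR = 0.01237), with a minimum of 10 counts (FDR = 0.007742), without XRN1-null replicate 2 (FDR = 0.01652) and without WT replicate 2, where it was -0.72 (FDR = 0.01003). The edited gene thus had more mRNA and fewer footprints per mRNA in the libraries labelled XRN1-null. The paper reports that XRN1 transcripts of the edited cells kept an intron. It also proposes that uncapped mRNA fragments, which are not translated, build up in these cells. Counts per gene do not separate such fragments from intact mRNA, so the mRNA values here, and footprints relative to them, may include both. This was not tested.

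The first comparison addressed whether mRNAs for the 3′–5′ decay machinery differ in level when the 5′–3′ nuclease is missing. With edgeR's quasi-likelihood test and Benjamini-Hochberg adjustment over 10105 genes, and an FDR below 0.005 as the threshold, 5 of the 7 mRNAs were higher in XRN1-null cells and 0 were lower. The 5 were DIS3, SKIV2L2, DIS3L2, SKIV2L and TTC37, with rises from 1.26-fold to 1.78-fold. Such calls were frequent, as 22.9% of all genes were called higher and 23.2% lower. The median log2 fold change of the 7 genes was 0.34, and that of all genes was -0.01. In 6 of them both XRN1-null libraries were above both WT libraries, an arrangement found in 41% of all genes.

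DIS3 showed the largest rise of the group. Its mRNA was 99.5 and 118 CPM in the WT replicates and 192 and 197 CPM in the XRN1-null replicates. The WT libraries were thus well below the XRN1-null libraries, and the log2 fold change was 0.83 ± 0.09 (SE), or 1.78-fold (FDR = 0.000156). By size this placed DIS3 at rank 841 of all genes. The gene lies on the minus strand of chromosome 13, from 73326307 to 73356234 in GRCh37, whose coordinates are those of hg19. Its reference transcript has 21 exons, 2874 nt of coding sequence and a long 3′ untranslated region of 7629 nt. Exons of BORA, an activator of the mitotic kinase Aurora A, overlap this transcript over 1180 nt on the opposite strand, and the counting was not stated to use strand, so reads in that stretch cannot be assigned. BORA mRNA was itself higher in XRN1-null cells by 0.50 ± 0.07 on the log2 scale (FDR = 0.0007086). By CPM its level in WT cells, 43.3 ± 2.5 (SD, n = 2), was below that of DIS3 at 109 ± 13, but the genes differ in length. Per kb of the gene width given with the counts, whose basis is not stated, the WT levels were within their spread. They were 13.6 ± 0.8 CPM per kb for BORA and 14.3 ± 1.8 for DIS3.

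DIS3L2, the exosome-independent nuclease, had the lowest level of the group and rose by a similar factor. Its mRNA was 16.3 and 17.5 CPM in WT and 25.4 and 28.6 CPM in XRN1-null libraries. The groups were separate, with a log2 fold change of 0.68 ± 0.09 (FDR = 0.0005142). With RNA-Seq counts thinned to the depth of Ribo-Seq the call was lost (0.47, FDR = 0.03879), and 17.7% of all genes were called higher. It is encoded on the plus strand of chromosome 2, from 232825955 to 233209060, and its reference transcript has 21 exons.

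DIS3L, the cytoplasmic exosome nuclease, differed from its paralogues in that its change missed the threshold. Its mRNA was 60 and 61.2 CPM in WT and 66.1 and 67.2 CPM in XRN1-null libraries. Both XRN1-null values were above both WT values, but the difference was small, with a log2 fold change of 0.14 ± 0.06 and a 95% interval from -0.01 to 0.28 (FDR = 0.08141). The gene is on the plus strand of chromosome 15, from 66585555 to 66626236. The uneven change shows in the ratio of DIS3 to DIS3L, each per kb of coding sequence, which was 1.83 and 2.13 in WT mRNA but 3.19 and 3.22 after editing of XRN1. The size of this ratio depends on the length used. Per kb of the gene width, WT mRNA was 13.0 and 15.5 CPM for DIS3 and 15.6 and 15.95 CPM for DIS3L. In XRN1-null libraries it was 25.1 and 25.8 CPM for DIS3 and 17.2 and 17.5 CPM for DIS3L. A test of the difference between paralogues was not made.

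SKIV2L2, the nuclear exosome helicase, rose by 1.62-fold. Its mRNA was 80.4 and 105 CPM in WT and 151 and 150 CPM in XRN1-null libraries. The WT replicates were farther apart than those of the other members in mRNA, yet both were below the XRN1-null replicates, and the log2 fold change was 0.70 ± 0.12 (FDR = 0.001348). SKIV2L2 lies on the plus strand of chromosome 5, from 54603817 to 54721407. Exons of PLPP1, a lipid phosphatase gene, overlap its reference transcript over 481 nt on the opposite strand. PLPP1 mRNA was low, at 16.4 ± 0.5 CPM (SD, n = 2) in WT libraries and 19.3 ± 0.9 CPM in the XRN1-null libraries.

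Within the SKI complex, the helicase and the scaffold rose by nearly equal factors, and the WDR61 mRNA did not pass the test. SKIV2L mRNA was 54.0 and 52.3 CPM in WT and 66.1 and 68.5 CPM in XRN1-null libraries, a log2 fold change of 0.34 ± 0.06 (FDR = 0.002138). TTC37 mRNA was 142 and 136 CPM in WT and 172 and 178 CPM in XRN1-null libraries, a log2 fold change of 0.33 ± 0.06 (FDR = 0.002471). For both genes the XRN1-null libraries were above the WT libraries. WDR61 mRNA was 59.6 and 68.1 CPM in WT and 63.0 and 65.6 CPM in XRN1-null libraries, with the XRN1-null values between the WT values. Its log2 fold change was 0.01 ± 0.08, with a 95% interval from -0.18 to 0.20 (FDR = 0.9097). Per kb of coding sequence, the ratio of TTC37 to SKIV2L mRNA stayed between 2.06 and 2.10 in all 4 RNA-Seq libraries, whereas the ratio of WDR61 to SKIV2L mRNA was 4.51 and 5.31 for WT and 3.90 and 3.91 for XRN1-null cells. SKIV2L maps to the plus strand of chromosome 6 (31926893 to 31937595), TTC37 to the minus strand of chromosome 5 (94797459 to 94890754) and WDR61 to the minus strand of chromosome 15 (78570177 to 78592045).

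The calls for SKIV2L and TTC37 were the least firm of the 5, although their log2 fold changes stayed between 0.31 and 0.37 without either XRN1-null RNA-Seq library. Without replicate 1 of the XRN1-null RNA-Seq libraries their FDR became 0.01937 and 0.03361, and without replicate 2 it became 0.03919 and 0.05754, which left 3 called members in either case, while 16.2% and 16.3% of all genes were then called higher. DIS3, DIS3L2 and SKIV2L2 passed the threshold without any 1 of the RNA-Seq libraries. Where 1 library of a genotype is left, it is assumed to vary as the replicates of the other genotype do.

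**Figure D1:**
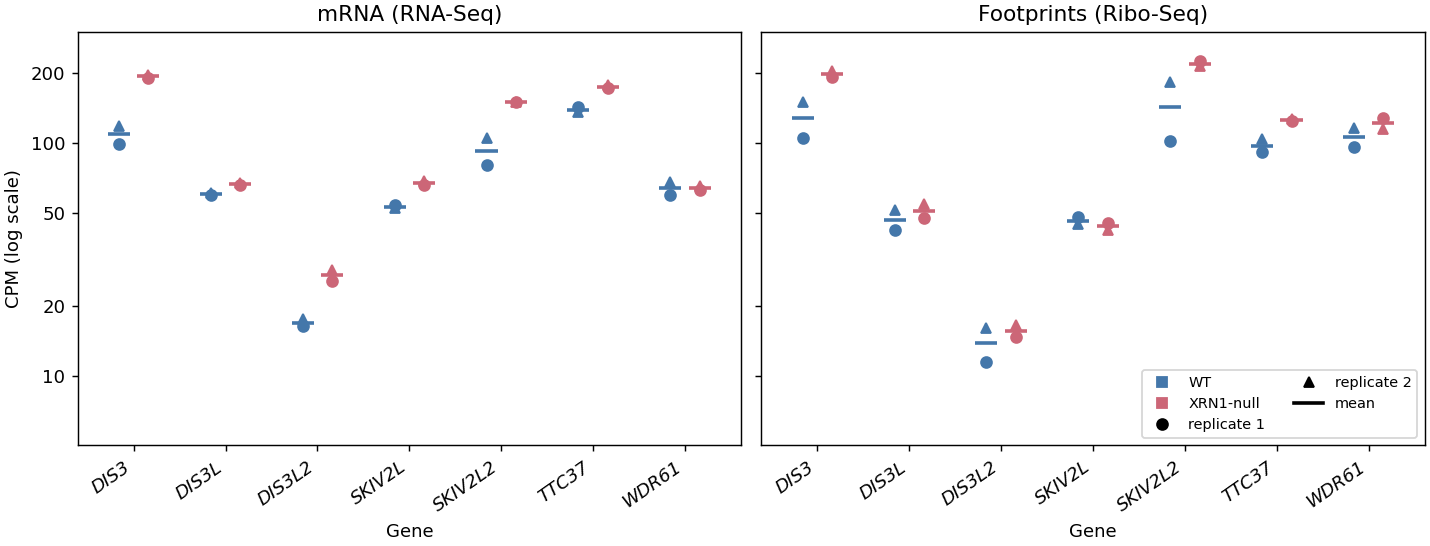
Expression of the 7 genes in each library, as CPM on a log axis, for RNA-Seq (left) and Ribo-Seq (right). Circles are replicate 1, triangles replicate 2 and bars the mean of 2. In mRNA, both XRN1-null libraries lie above both WT libraries for every gene except WDR61. In footprints, the WT replicates of DIS3 and SKIV2L2 lie far apart.

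The second comparison asked whether ribosome footprints on these mRNAs differed. None of the 7 genes passed the threshold in RPF, where 0.633% of all genes were called higher and 1.14% lower. With no adjustment, 3336 genes had p below 0.05 in this comparison, and DESeq2 also called 0 of the 7. The log2 fold change was positive for 6 of the 7 genes, and in 3 of them, DIS3, SKIV2L2 and TTC37, both XRN1-null libraries were above both WT libraries. The latter arrangement held for 32.1% of all genes. The median log2 fold change was 0.19 for the group.

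DIS3 footprints were 105 and 151 CPM in WT and 192 and 203 CPM in XRN1-null libraries. The groups were apart, and the log2 fold change was 0.61 ± 0.17 (FDR = 0.03299). SKIV2L2 footprints were 102.1 and 183 CPM in WT and 226 and 214 CPM in XRN1-null libraries, a log2 fold change of 0.60 ± 0.21 (FDR = 0.07578). For both genes WT replicate 2 was well above WT replicate 1, by more in footprints than in mRNA. The calls depended on the model and on the WT libraries. With the replicate number as a block, DIS3 (FDR = 0.0007982) and SKIV2L2 (FDR = 0.0006467) were called higher, as were 6.1% of all genes. Without WT Ribo-Seq replicate 2, 3 of the 7 genes were called higher in RPF, with log2 fold changes of 0.92 for DIS3 (FDR = 6.204e-11), 1.12 for SKIV2L2 (FDR = 5.04e-15) and 0.47 for TTC37 (FDR = 0.002252), but 12.7% of all genes were called higher in that fit. Without WT Ribo-Seq replicate 1, the lone call was DIS3 at 0.40 (FDR = 0.0007422), with 5.82% of all genes called higher, and SKIV2L2 was 0.27 (FDR = 0.02194). The same assumption about the single WT library holds for these fits.

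TTC37 footprints were 91.2 and 104 CPM in WT and 124 and 127 CPM in XRN1-null libraries, a log2 fold change of 0.35 ± 0.14 (FDR = 0.1018) that was close to that of its mRNA. SKIV2L, its partner, was the single gene of the group with a negative value. Its footprints were 47.9 and 44.8 CPM in WT and 45.4 and 42.5 CPM in XRN1-null libraries, overlapping between the genotypes, with a log2 fold change of -0.06 and a 95% interval from -0.39 to 0.26 (FDR = 0.7909). The ratio of TTC37 to SKIV2L footprints per coding kb was accordingly 1.51 and 1.85 for WT and 2.18 and 2.38 for XRN1-null cells, unlike the even ratio in mRNA.

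DIS3L2 footprints were 11.5 and 16.1 CPM in WT and 14.7 and 16.5 CPM in XRN1-null libraries. The genotypes overlapped, the log2 fold change was 0.10 (FDR = 0.7856), and with 22 to 70 counts per library its 95% interval was wide, from -0.40 to 0.60. DIS3L footprints also overlapped, at 42.2 and 51.5 CPM in WT and 47.4 and 54.6 CPM in XRN1-null libraries (log2 fold change 0.09, FDR = 0.7189). WDR61 footprints were 96.4 and 116 CPM in WT and 129 and 115 CPM in XRN1-null libraries, again overlapping, with a log2 fold change of 0.19 (FDR = 0.4034).

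The third comparison concerned translational efficiency (TE), the footprints of a gene relative to its mRNA. The test was the assay-by-genotype term of a single fit to all 8 libraries. None of the 7 genes passed the threshold, against 0.0495% of all genes called higher and 1.78% called lower, and DESeq2 likewise called 0. With no adjustment, 2356 genes had p below 0.05, among them SKIV2L and DIS3L2. The log2 change in TE was negative for 5 of the 7 genes, with a median of -0.12 against 0.01 for all genes.

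SKIV2L had a log2 TE change of -0.40 ± 0.14 (SE), with a 95% interval from -0.70 to -0.10 (unadjusted p = 0.01281 in edgeR's quasi-likelihood test, FDR = 0.1022). Taking the footprint and mRNA libraries of the same replicate number together, its TE was 0.888 and 0.856 for WT and 0.688 and 0.620 for XRN1-null cells. Both XRN1-null values were below both WT values. DIS3L2 changed by -0.58 ± 0.24 (unadjusted p = 0.0322 in the same test, FDR = 0.1696), with a TE of 0.703 and 0.918 for WT and 0.577 and 0.579 for XRN1-null cells. Without WT Ribo-Seq replicate 2 the change was -0.23 for DIS3L2 and -0.45 for SKIV2L. DIS3 was the third gene with both XRN1-null values below both WT values, and its log2 change was -0.23 (FDR = 0.519), which turned to 0.09 without WT Ribo-Seq replicate 2. Among all genes, 27.8% had TE values arranged in this way, and 28.8% had both XRN1-null values above both WT values, as WDR61 did.

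The other genes showed smaller differences. SKIV2L2 changed by -0.12, DIS3L by -0.06, TTC37 by 0.02 and WDR61 by 0.17 on the log2 scale, with 95% intervals that all included 0. The sign turned for 3 of these 4 genes. Without WT Ribo-Seq replicate 2 the change was 0.42 for SKIV2L2 and 0.14 for DIS3L, and TTC37 turned to -0.02 when libraries were scaled by their totals alone. WDR61 and SKIV2L2 had the highest TE of the group in both genotypes. TE was 1.62 to 2.05 for WDR61, at the 90.0 to 94.2 percentile of all genes, and 1.27 to 1.74 for SKIV2L2, at the 79.5 to 91.8 percentile. TTC37 and DIS3L were near the middle of all genes or under it, from 0.640 to 0.766 and from 0.703 to 0.840.

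**Figure D2:**
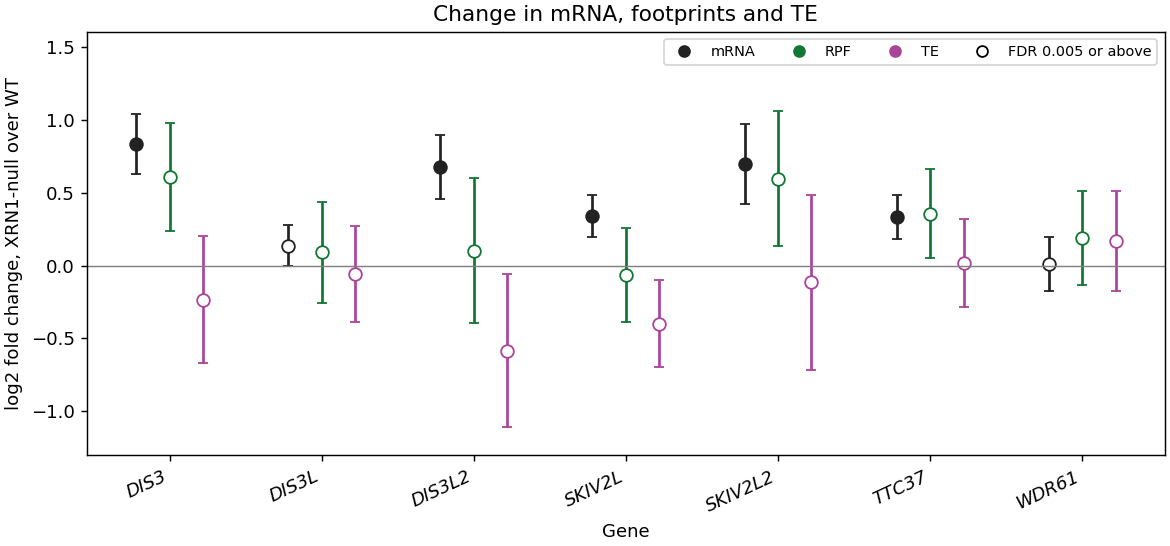
Log2 fold change of XRN1-null over WT for mRNA, RPF and TE of each gene, with 95% intervals from edgeR's quasi-likelihood fit (8 libraries, 2 per genotype and assay). Filled points passed an FDR of 0.005, which were the mRNA values of 5 genes and no RPF or TE value. For SKIV2L and DIS3L2 the RPF value is near 0 and the TE value below it.

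**Figure D3:**
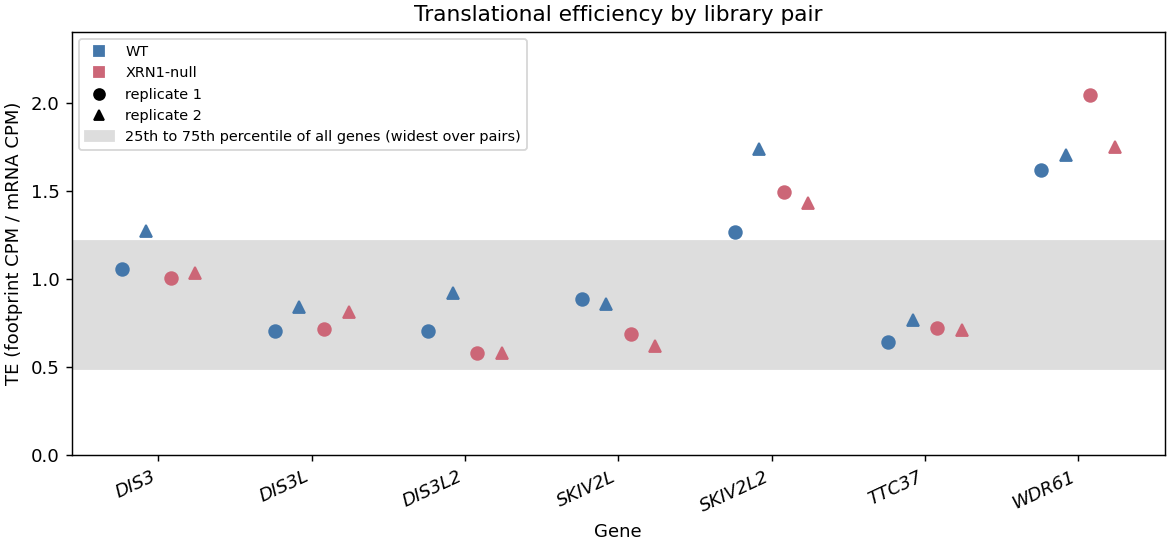
TE of each gene in each pair of footprint and mRNA libraries with the same replicate number (linear axis). The grey band spans the 25th to 75th percentile of all genes, taken as the widest over the 4 pairs. SKIV2L2 and WDR61 lie above the band in all 4 pairs and the other genes mostly within it.

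Levels were next compared between genes, per kb of the gene width given with the counts. How this width was made is not stated, and for DIS3 it is 7634 nt where the reference transcript has 10571 nt, so these levels hold only on that scale. In WT mRNA the order was WDR61 (44.8 ± 4.2 CPM per kb, SD, n = 2), TTC37 (24.4 ± 0.9), SKIV2L2 (22.1 ± 4.2), DIS3L (15.8 ± 0.2), DIS3 (14.3 ± 1.8), SKIV2L (12.7 ± 0.3) and DIS3L2 (3.42 ± 0.17). Neighbours within their spread were TTC37 and SKIV2L2, DIS3L and DIS3, and DIS3 and SKIV2L. In XRN1-null mRNA the order became WDR61 (45.1 ± 1.3), SKIV2L2 (35.8 ± 0.1), TTC37 (30.7 ± 0.7), DIS3 (25.4 ± 0.5), DIS3L (17.4 ± 0.2), SKIV2L (16.1 ± 0.4) and DIS3L2 (5.46 ± 0.45), with all neighbours apart by more than their SD.

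In WT footprints WDR61 (74.5 ± 9.6 CPM per kb) and SKIV2L2 (33.9 ± 13.6) led, and DIS3L2 (2.79 ± 0.66) was again the lowest. TTC37 (17.1 ± 1.6), DIS3 (16.7 ± 4.2), DIS3L (12.2 ± 1.7) and SKIV2L (11.1 ± 0.5) lay between them, and each was within the spread of its neighbour. The place of DIS3 depended on the length used. Divided by coding length, which leaves out its long 3′ untranslated region but not the reads in it, WT mRNA of DIS3 was 37.9 ± 4.7 CPM per kb. By its mean it was second to WDR61, though within the spread of SKIV2L2 (29.7 ± 5.6). Among the nucleases, footprints per coding kb of DIS3 were 8.48 and 8.64 times those of DIS3L2 in WT and 12.1 and 11.4 times in XRN1-null cells.

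The sequence around each start codon is shown for the members with an unadjusted p below 0.05 in TE (DIS3L2 and SKIV2L) and the highest TE (SKIV2L2 and WDR61). Each line has 10 nt before the start codon and 7 nt after it, from the GENCODE release 44 reference transcript, with the ATG in capitals.
DIS3L2: ggagccaataATGagccatc
SKIV2L: tggctccaggATGatggaga
SKIV2L2: gctcccaaaaATGgcggacg
WDR61: ggttaaggaaATGaccaacc
A strong context has a purine 3 bases before the ATG and a G right after it. All 7 members had the purine, as did 87.84% of 9189 transcripts of the table, and SKIV2L2 was the member that had both bases, compared with 47.94% of these transcripts. The leader of DIS3L2 held 1 other ATG and that of TTC37 held 2, and the other members held 0. SKIV2L has the shortest leader (18 nt) and TTC37 the longest (269 nt). No relation of these features to TE was tested.

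Promoter sequence is shown for the members whose mRNA rose most, DIS3, SKIV2L2 and DIS3L2. It was taken from RefSeq windows on GRCh38.p14, from 250 bases before the annotated start to the last base before any annotated transcript, on the strand of the gene. These are chr13:72782097-72782150 (minus), chr5:55307739-55307988 (plus) and chr2:231961463-231961683 (plus), with motif matches in capitals.
DIS3: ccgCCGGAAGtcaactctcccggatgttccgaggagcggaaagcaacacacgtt
SKIV2L2: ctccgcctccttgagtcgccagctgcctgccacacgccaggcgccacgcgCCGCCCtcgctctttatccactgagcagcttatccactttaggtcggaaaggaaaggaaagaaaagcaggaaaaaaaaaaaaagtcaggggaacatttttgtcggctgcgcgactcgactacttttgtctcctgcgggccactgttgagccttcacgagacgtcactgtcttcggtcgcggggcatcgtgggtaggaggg
DIS3L2: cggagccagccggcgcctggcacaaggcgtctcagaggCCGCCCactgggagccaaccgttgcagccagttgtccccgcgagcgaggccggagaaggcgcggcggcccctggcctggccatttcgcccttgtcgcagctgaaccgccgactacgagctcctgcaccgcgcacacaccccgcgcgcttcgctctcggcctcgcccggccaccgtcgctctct
Searched on both strands over whole windows of 300 bases, the GC box (GGGCGG) matched 2 times for DIS3, 1 time for SKIV2L2 and 1 time for DIS3L2. It was found in 45% of 35116 windows. The CCAAT box (CCAAT) matched 2 times for DIS3 and 0 times for the other two, and was found in 34.6% of windows. The ETS core (CCGGAAG) matched 1 time each for DIS3 and DIS3L2 and was found in 10.3%, and the TATA box (TATAAA), found in 11.5%, matched in none of the 3. A CRE (TGACGTCA, in 1.85% of windows), an E2F site (TTTCGCGC, 0.515%), a YY1 site (AAGATGG, 5.84%) and the NRF1 palindrome (1.24%) also matched in none of them. No 2 matches overlapped in these windows, and a match describes letters only.

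The partners of these enzymes were described by 5 lists, of which 33 of 34 genes were in the table (LIN28A was not analysed here). In mRNA 5 of the 33 genes were called higher and 5 lower, in RPF 0 and 1, and in TE 0 and 2. The medians of log2 fold change over the 33 genes were 0.04, 0.14 and 0.10. Over all genes the shares called higher and lower were 22.9% and 23.2% in mRNA, 0.633% and 1.14% in RPF, and 0.0495% and 1.78% in TE. The list counts moved with single libraries, and so did the calls over all genes. Without WT RNA-Seq replicate 1 or 2, 16 or 20 list genes were called in mRNA, against 62.4% or 67.3% of all genes. Without WT Ribo-Seq replicate 1 or 2, 7 or 11 were called in RPF, against 12.8% or 23.4% of all genes, and without XRN1-null Ribo-Seq replicate 1, 2 were called, against 1.54%.

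Of 10 exosome genes, the barrel subunits and the nuclear nuclease EXOSC10, 0 were called higher and 3 lower in mRNA. These were EXOSC6 (-1.04 ± 0.09, FDR = 6.895e-05), EXOSC5 (-0.60 ± 0.06, FDR = 0.0001528) and EXOSC3 (-0.35 ± 0.07, FDR = 0.002668). The threshold was narrowly missed by EXOSC9 (0.30, FDR = 0.005485) and EXOSC10 (0.26, FDR = 0.006689), which were higher, and by EXOSC4 (-0.32, FDR = 0.006115). With the replicate number as a block, EXOSC9 (FDR = 0.001635), EXOSC10 (FDR = 0.00416) and EXOSC4 (FDR = 0.001578) passed, and 56% of all genes were called. EXOSC5 and EXOSC6 belong to the ring of the barrel and EXOSC3 to its RNA-binding cap. EXOSC6 was also the gene called in RPF. Its footprints were 40.6 and 37.9 CPM in WT and 18.6 and 19.7 CPM in XRN1-null libraries, a log2 fold change of -1.03 ± 0.17 (FDR = 0.003728), and its TE changed by 0.02. This RPF call was lost in DESeq2 (FDR = 0.01028) and without XRN1-null Ribo-Seq replicate 1 (FDR = 0.01354) or replicate 2 (FDR = 0.005032). The call of EXOSC3 was lost without either XRN1-null RNA-Seq library (FDR = 0.02638 and 0.03819) and with library totals (FDR = 0.005632). The median of the list in mRNA was -0.04, and 0.01 with library totals.

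Among 9 genes listed as adaptors and cofactors of the nuclear exosome, 3 were called higher and 2 lower in mRNA. ZCCHC8, which binds MTR4 in the nuclear exosome targeting complex, rose by 1.30 ± 0.07 on the log2 scale (FDR = 9.972e-06). NRDE2, which restrains MTR4, rose by 0.85 ± 0.14 (FDR = 0.001276), and ZFC3H1, which links MTR4 to polyadenylated nuclear RNA, rose by 0.67 ± 0.06 (FDR = 9.66e-05). MPHOSPH6, an exosome-associated protein of rRNA processing, fell by 0.98 ± 0.09 (FDR = 8.041e-05), and PAPD5, a noncanonical poly(A) polymerase, fell by 0.48 ± 0.07 (FDR = 0.0008101). With RNA-Seq counts thinned to the depth of Ribo-Seq, the calls of NRDE2 (0.62, FDR = 0.01462), PAPD5 (FDR = 0.05889) and EXOSC3 (FDR = 0.1469) were lost. The PAPD5 call was also lost without XRN1-null RNA-Seq replicate 1 (FDR = 0.01015) or replicate 2 (FDR = 0.0057).

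ZCCHC8 and FOCAD were the list genes called in TE. FOCAD, which stabilizes the SKI complex, was the called gene among 5 SKI partners and 3′–5′ decay factors, with mRNA of 96.7 and 97.0 CPM in WT and 154 and 150 CPM in XRN1-null libraries (0.65 ± 0.06, FDR = 8.866e-05). Its footprints were 94.3 and 112 CPM in WT and 78.7 and 84.9 CPM in XRN1-null libraries, so its TE fell to 0.499 of the WT value, with an SE of 0.14 on the log2 scale (FDR = 0.001631). ZCCHC8 footprints were 39.1 and 39.3 CPM in WT and 49.2 and 49.3 CPM in XRN1-null libraries, less of a rise than in mRNA, and its TE changed by -0.98 ± 0.14 (FDR = 0.001631). Both TE calls were lost without XRN1-null RNA-Seq replicate 1 (FDR = 0.01149 for ZCCHC8 and 0.01413 for FOCAD) or replicate 2 (0.01029 and 0.01045), without WT Ribo-Seq replicate 2 (0.01277 and 0.005822), and without XRN1-null Ribo-Seq replicate 1 (0.02193 and 0.02801) or replicate 2 (0.01564 and 0.0157), with changes that stayed at -0.84 or below.

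ZCCHC6 (TUT7), one of the uridylyl transferases that add the tails DIS3L2 prefers, showed the largest rise of the lists. Its mRNA was 19.1 and 18.8 CPM in WT and 67.5 and 65.3 CPM in XRN1-null libraries, a log2 fold change of 1.81 ± 0.07 (FDR = 3.073e-06). Its footprints were 13.0 and 22.5 CPM in WT and 39.0 and 37.1 CPM in XRN1-null libraries (log2 fold change 0.99 ± 0.21, FDR = 0.01073). The other 3 measured genes of that list, with the related enzyme ZCCHC11 (TUT4) at -0.01, were not called. None of the 5 PAF1 complex genes, with which WDR61 is shared, were called in mRNA, RPF or TE, and their median in mRNA was 0.33. CTR9 mRNA came near the threshold (0.59 ± 0.14, FDR = 0.006188). With the replicate number as a block, PAF1 (FDR = 0.0009672), CTR9 (FDR = 1.596e-05) and RTF1 (FDR = 0.001078) were called higher in mRNA, and LEO1 and CDC73 were not. CTR9 was then also called higher in RPF (FDR = 0.000137). In these fits 28.3% and 6.1% of all genes were called higher.

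**Figure D4:**
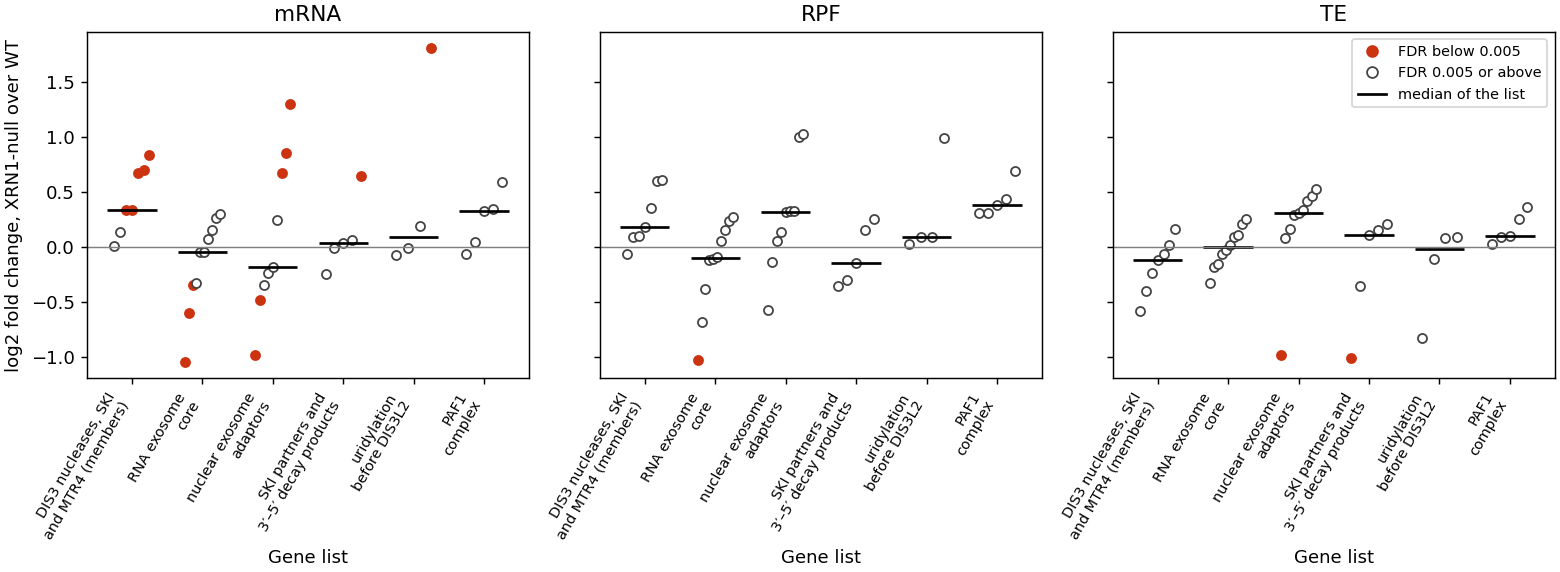
Log2 fold change of XRN1-null over WT for each gene of the members and of the 5 lists of partners, in mRNA, RPF and TE. Filled points passed an FDR of 0.005 and bars are medians. In mRNA the called members are all above 0. The called exosome core genes are all below 0, with uncalled ones on both sides. The called genes listed as nuclear exosome adaptors lie on both sides.

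Finally, the genes most like each member were found by Pearson's r of log2 CPM over the 8 libraries, centred within each assay, among 9767 genes. For DIS3 they were NUP88 (r = 0.9989), a nuclear pore gene, and MKLN1 (r = 0.9987), and for SKIV2L2 they were PPP2R2A (0.9967) and EIF2AK2 (0.9957). DIS3L2 was closest to CEP131 (0.9941) and ACIN1 (0.9858), and DIS3L to SCRN3 (0.9766) and PACSIN3 (0.9751). SKIV2L was closest to GUSB (0.9885) and ANKRD10 (0.9873), TTC37 to BNIP1 (0.9962) and ERCC2 (0.9924), and WDR61 to FH (0.9865) and RNF216 (0.9832). With 8 points that share libraries and scaling, high values are readily found among so many genes, and they are given as a description only. No member was among the closest genes of another.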

How the data were processed

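RNA-Seq and Ribo-Seq of WT and XRN1-null HEK293T cells gave 8 libraries, grouped by the labels. Per the paper's methods, the authors removed rRNA reads with Bowtie2, mapped paired-end reads on hg19 with TopHat2, kept footprints of the most periodic lengths, counted with QuasR and kept genes by an FPKM cutoff. The values deposited are raw counts per gene with a gene width. Whether mates were counted singly, and any strand setting, are not given in the sources used here. The RNA-Seq counts per library exceeded the mapped RNA-Seq reads that the paper gives, so they may not equal the number of fragments. The deposited fold changes, p-values, FDR and TE of the authors' own comparisons were not used.

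From the counts, edgeR 4.0.16 (R 4.3.3) was run with TMM factors within each assay and the quasi-likelihood test on all 10105 genes, per assay with genotype as the term, and for TE with assay, genotype and their interaction over 8 libraries. Genes were called at a Benjamini-Hochberg FDR below 0.005. SE is the log2 fold change over the square root of F. Log2 CPM had 0.5 added. The alternatives were RLE factors, library totals, DESeq2 1.42.0, a minimum of 10 counts in every library, an FDR of 0.05, thinned RNA-Seq counts, replicate and culture blocks, coding length, and leaving out each library. Scripts were tested on simulated data. Gene positions are from GENCODE release 44 on GRCh37, and promoter windows from RefSeq on GRCh38.p14, in which all 7 members were matched.

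The members and lists were chosen with earlier results of these data known. Named are XRN1, the members, every list gene called in any comparison, and the 2 genes most like each member. BORA, PLPP1 and ZCCHC11 were added after values were seen. Depth limits precision, with 1921641 to 4399542 counts per Ribo-Seq library, and p-values reflect 2 replicates per group. Counts may include PCR duplicates.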

Additional observations from a re-analysis of the deposited data

How the results depend on the processing

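The counts of called members (5 in mRNA, 0 in RPF, 0 in TE) were the same with RLE factors, library totals, DESeq2 and a minimum of 10 counts. With RNA-Seq counts thinned to the depth of Ribo-Seq, 3 were called in mRNA, as DIS3L2 (0.47, FDR = 0.03879) and SKIV2L (0.27, FDR = 0.07846) were lost, and 17.7% of all genes were called higher and 14.4% lower. At an FDR below 0.05, 1 member was called in RPF, where 7.07% of all genes were called higher. With the replicate block, 2 were called in RPF (DIS3, FDR = 0.0007982, and SKIV2L2, FDR = 0.0006467), where 6.1% of all genes were called higher, and list genes called went to 17 in mRNA and 7 in RPF (56% and 12.7% of all genes were called), with no change in the count of members in mRNA or TE. Same-numbered libraries share only a number in the labels, and their deviations correlated at 0.19 in mRNA, 0.08 in RPF and 0.08 in TE, each from 2 pairs, and across assays at 0.355 in WT and 0.033 in XRN1-null cells. With the culture block, TE calls over all genes went from 5 higher and 180 lower to 55 and 435, with 0 members among them. List genes called in RPF were 2 with library totals and 0 with DESeq2 (2.94% and 2.16% of all genes), and at an FDR below 0.05 they were 18 in mRNA and 7 in RPF (67.1% and 15.4% of all genes). Leaving out each library gave 3 to 5 members in mRNA and 0 to 3 in RPF, and 8 to 20 list genes in mRNA, 1 to 11 in RPF and 0 to 3 in TE, while calls over all genes ranged from 27.2% to 67.3%, 1.54% to 23.4% and 0.188% to 2.33%. Signs turned for 7 uncalled member values. TTC37 TE was -0.0208 with library totals, -0.007 with the minimum of 10 counts, and -0.0549 to 0.14 over the libraries left out. Over the same, WDR61 mRNA was -0.0621 to 0.11, DIS3L RPF -0.0151 to 0.28, DIS3L2 RPF -0.0471 to 0.45, DIS3 TE -0.43 to 0.0893, DIS3L TE -0.16 to 0.14 and SKIV2L2 TE -0.43 to 0.42. The 5 called mRNA values of members stayed positive under all alternatives. Levels per kb moved with coding length in place of width, and DIS3 most in rank. The causes were not tested.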
